A study of Mus musculus with 4 samples.

Results

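Somatostatin-producing D cells are the enteroendocrine cells of the gut epithelium whose leading hormone is somatostatin. They were found here among single cells of mouse small-intestinal crypts by their transcripts alone. A cell was counted as a D cell when its Sst transcripts reached 20 per 10000 counted molecules (CP10K), when Sst was the highest of the hormone genes Gcg, Gip, Cck, Sst, Ghrl and Nts, and when Neurog3, the factor of endocrine progenitors, had under 2 molecules. Of 29731 cells that passed quality limits (a minimum of 500 genes and a mitochondrial share of 20% or less), 138 met this rule. The study took small-intestinal epithelium of mice before and after sleep deprivation and counted transcript molecules (UMIs, unique molecular identifiers) in 4 libraries. Of these, 2 are labelled 2D (2D-1 and 2D-2) and 2 are labelled 0D (0D-1 and 0D-2). The labels give no strain, age, sex or genotype, do not spell out what D in 2D and 0D stands for, and do not say that the libraries came from separate animals. The p-values below thus rest on spread among these 4 libraries, which may be purely technical. Where kinds of cell are compared within libraries, it is the spread of their difference from library to library. The gene tests also pool spread over genes, so a p-value does not measure a gene's own scatter alone. D cells numbered 26 in 2D-1 and 61 in 2D-2, against 24 in 0D-1 and 27 in 0D-2. The D cells are set against 1011 other peptide-hormone cells of the same libraries, in which Cck (412 cells), Gip (347), Ghrl (156), Gcg (75) or Nts (21) was highest.

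Somatostatin is a short peptide that slows secretion. D cells release it onto their neighbours, where it lowers the output of other gut hormones and of acid and enzymes through inhibitory G-protein-coupled receptors. In the pancreas and gut the hormone gene depends on endocrine transcription factors, and its promoter is a textbook target of cyclic AMP signalling through the factor CREB, which binds the palindrome TGACGTCA. In GENCODE the gene spans chr16:23889573-23890958 of build GRCm38, on the minus strand. The stretch of promoter that holds that palindrome is shown because the cells were chosen by this gene. It spans chr16:23890874-23890903, taken from RefSeq with build GRCm38.p6 and written along the minus strand, with the palindrome in capitals.
Sst promoter: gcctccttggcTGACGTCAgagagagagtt
The palindrome TGACGTCA, which reads the same on both strands, lies 48 to 41 bases before the start that RefSeq annotates, chr16:23890844. The gene bounds given above are those of GENCODE, in which the RefSeq start and this stretch lie inside the gene, the start 114 bases in. The palindrome was present in the 250 bases before the RefSeq start of 478 of 27025 genes (1.77%). Of the 12 genes with the largest excess in D cells described further on, 11 had a promoter entry and 1, Th, held it.

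The libraries held 7025 and 7988 quality cells in 2D-1 and 2D-2 and 7586 and 7132 in 0D-1 and 0D-2. Their totals were 110587001 and 93090534 UMIs in the 2D libraries, against 113758758 and 110817632 in the 0D libraries. Any pair of libraries shared 13 to 16 cell barcodes (0.185% to 0.228% of cells). Interferon response genes stood apart in 2D-1 over all its cells (28 genes summed to 2183 CPM, UMIs scaled to a common total), against 484 in 2D-2 and 526 and 565 in 0D-1 and 0D-2.

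Members near the threshold were few. Of the 138 cells, 7 lay between 20 and 40 CP10K of Sst (21.6 to 35.8). Only 2 cells with Sst as their highest hormone lay between 10 and 20 CP10K (14.1 and 18.4, both in 2D-2). A further 5 cells passed 20 CP10K of Sst but had more Gip (4 in 2D-1 and 1 in 0D-1), and none was left out for Neurog3. Sst molecules, most often single ones, were also found in cells that should lack the gene. Among goblet cells, mucus-secreting cells chosen here by Muc2 and the absence of endocrine markers, 3.50% and 2.99% had an Sst UMI in 2D-1 and 2D-2, against 1.71% and 2.79% in 0D-1 and 0D-2. Those cells had median depths of 7165 and 8901.5 UMIs in the 2D libraries and 10977 and 12494 in the 0D libraries. Among the goblet cells with an Sst UMI the median count was 1 molecule. Paneth cells were chosen likewise by Lyz1. In 2D-2 the highest level was 25.8 CP10K in a goblet cell and 271 CP10K in a Paneth cell. In 0D-2 a Paneth cell reached 22.9 CP10K. These values pass 20 CP10K, so such cells could be counted as D cells when Sst was their highest hormone. D cells held 3 to 2438 Sst molecules each, with a median of 195.

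D cells varied widely among themselves. Sst ranged from 21.6 to 2858 CP10K with a median of 909, and the library medians were 1320 in 2D-1 and 792 in 2D-2, against 571 in 0D-1 and 941 in 0D-2. Their median depth was 3100.5 UMIs and 1501.5 genes, against 5691 UMIs and 2410 genes in the other peptide-hormone cells, and their median mitochondrial share was 6.06%, against 2.83%. A small deep fraction stood apart from this. In all, 16 D cells reached 10000 UMIs (2 in 2D-1 and 8 in 2D-2, against 5 in 0D-1 and 1 in 0D-2), and together they held 48.4% of all D cell UMIs. A single cell of 0D-2 with 88711 UMIs held 48.4% of that library's D cell total. These deep cells had a median Sst of 77.5 CP10K, against 1008 CP10K in the D cells under 10000 UMIs. Of the D cells, 14 of 138 lay above the doublet score of 0.222 applied to all libraries, against 110 of 1011 other peptide-hormone cells. Values summed per library therefore follow the deep cells in large part. Counts of called genes and selected genes and lists are also given without them, a setting chosen after the data were seen.

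**Figure D1:**
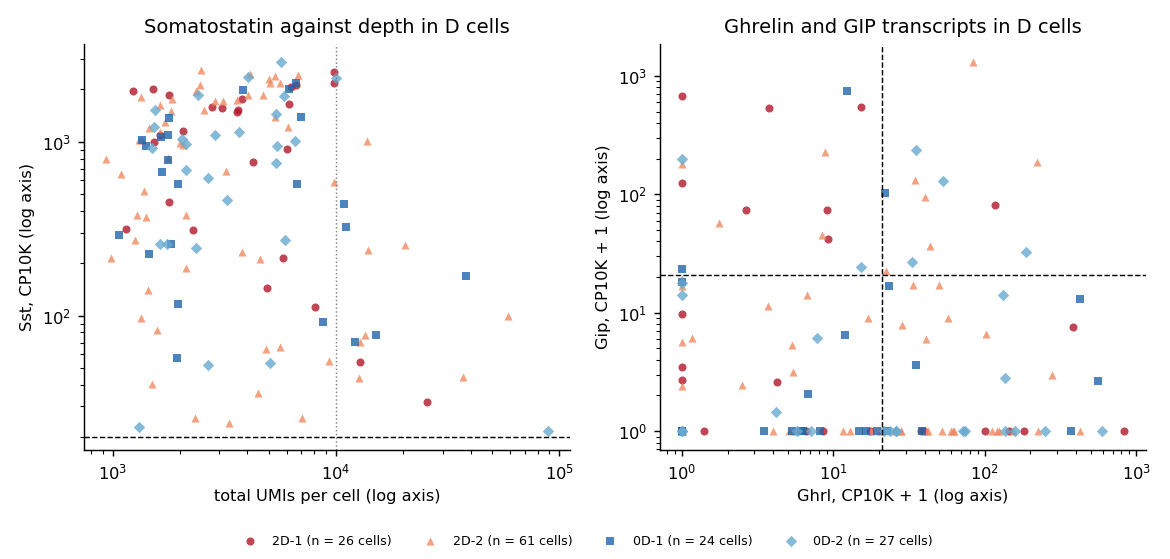
Each point is 1 of the 138 D cells. Left, Sst in transcripts per 10000 (CP10K) against total UMIs, with dashed and dotted lines at 20 CP10K and 10000 UMIs; most cells right of the dotted line have little Sst. Right, Ghrl against Gip in CP10K plus 1, with dashed lines at 20 CP10K; 60 cells reach the line for Ghrl and 27 the line for Gip.

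The label was checked against genes that mark somatostatin cells elsewhere. Hhex, a homeobox factor required for somatostatin cells of the mouse pancreas, and Iapp, the peptide amylin, were both found in cells of every library. Hhex stood at 768 and 576 CPM in D cells of 2D-1 and 2D-2, against 500 and 567 CPM in 0D-1 and 0D-2. Iapp stood at 2073 and 978 CPM in the 2D libraries and at 865 and 1597 CPM in the 0D libraries. Levels by Sst class are given as a description only, since Sst chose the cells. Pooled over libraries by Sst class (20 to 100, 100 to 500, 500 to 1000 and at least 1000 CP10K, with 25, 29, 21 and 63 cells), Hhex had 174, 549, 583 and 1218 CPM. Iapp had 103, 265, 1165 and 3638 CPM in the same classes. Isl1, a LIM-homeobox factor of endocrine cells in general, had 217, 877, 1227 and 1307 CPM. The lowest class differed in another respect: its cells were the deepest, with a median of 7028 UMIs against 2129, 2059 and 3102 in the classes above it. Defa24, an antimicrobial peptide of Paneth cells, was at 50013 CPM in the lowest class and at 3946 CPM in the highest. Muc2, the main goblet mucin, was at 2243 CPM in the lowest class and 414 CPM in the highest.

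Depth was evened by drawing 1000 UMIs from each cell, which left out 2 D cells of 2D-2. Of the thinned D cells, 53.8% and 61.0% had a Hhex UMI in 2D-1 and 2D-2, against 33.3% and 51.9% in 0D-1 and 0D-2 (92.3%, 83.1%, 62.5% and 77.8% without thinning). Other peptide-hormone cells had a Hhex UMI in 1.68% and 2.31% of thinned cells in the 2D libraries and in 0% and 0.926% in the 0D libraries. Iapp was found in 46.2% and 40.7% of thinned D cells in the 2D libraries and in 25.0% and 40.7% in the 0D libraries. In other peptide-hormone cells the Iapp share was between 0.66% and 3.36%. Isl1 separated the kinds far less, with a UMI in 61.0% to 65.4% of thinned D cells and 48.0% to 52.8% of the others. Rbp4, also listed as a D cell marker, did not separate them. It was found in 42.3% and 37.3% of thinned D cells in the 2D libraries and in 29.2% and 59.3% in the 0D libraries. The other peptide-hormone cells had 32.6% and 45.2% in the 2D libraries and 44.7% and 38.4% in the 0D libraries.

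Many D cells also carried a second hormone at a level that would have named them on its own. Ghrl, which encodes the hunger hormone ghrelin, reached 20 CP10K in 60 of 138 D cells (8 and 28 in 2D-1 and 2D-2, against 8 and 16 in 0D-1 and 0D-2). Gip, the incretin of K cells, reached it in 27 (8 and 10, against 3 and 6). Both did so in 12 cells and neither in 63. Cck reached it in 1 cell, Gcg in none, and Nts had no molecule in any D cell. Among D cells under 10000 UMIs, the 57 with Ghrl had a median Sst of 1208 CP10K and the 65 without it 573 CP10K. Chgb, a granule protein, stood at 4597 and 5030 CPM in those with Ghrl of 2D-1 and 2D-2 and at 13680 and 9296 CPM in those of 0D-1 and 0D-2. Without Ghrl it stood at 11285 and 14648 CPM in the 2D libraries and at 8944 and 18203 CPM in the 0D libraries, so 0D-1 ran the other way from the rest. These are genes the rule used or the same cells' other transcripts, so the pattern is given as a description.

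Transcripts of other crypt cells were present in the D cell sums. The 7 goblet markers summed to 45290 and 39031 CPM in 2D-1 and 2D-2, against 25872 and 7523 CPM in 0D-1 and 0D-2. The 7 Paneth markers summed to 55155 and 24797 CPM in the 2D libraries and 3156 and 66080 CPM in the 0D libraries. Both sums are led by deep cells: the 0D-2 cell of 88711 UMIs held 8457 of the 8790 Defa24 molecules of its library's D cells. Without the deep cells, the Paneth sums were 11363 and 13322 CPM in the 2D libraries, against 3487 and 5120 CPM in the 0D libraries. The goblet sums were then 6530 and 5174 CPM, against 18557 and 6651 CPM, with the order of the groups turned round. The part of Paneth and goblet transcripts in the results below was not tested, and their values stand beside the results they move with. Stem cell markers summed to 72.5 and 624 CPM in the 2D libraries, against 1838 and 1712 CPM in the 0D libraries, and without the deep cells to 20.1 and 143 CPM, against 99.1 and 52.8 CPM, where the groups overlapped. The 7 enterocyte markers summed to 348 and 465 CPM in the 2D libraries, against 419 and 196 CPM in the 0D libraries. Tuft cell markers summed to 7.25 and 14.3 CPM, against 0 in both 0D libraries. Immune markers summed to 7.25 CPM in 2D-1 and to 0 in each other library. Within these lists, the enterocyte genes Alpi, Apoa4 and Lct and the tuft cell genes Trpm5, Il25 and Pou2f3 had no molecule in D cells. The immune genes Ptprc, Cd3e, Cd79a and Jchain had none either.

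The next comparison asked which genes set D cells apart from the other peptide-hormone cells of the same libraries. UMIs were summed per library and kind of cell, and edgeR's quasi-likelihood test with library as a block and Benjamini-Hochberg adjustment was used throughout this comparison. The threshold was an adjusted p of 0.05, and 452 of 8662 genes tested were called (5.22%), 161 higher (1.86%) and 291 lower (3.36%) in D cells. The clearest differences were genes far higher in D cells than in the other peptide-hormone cells, above all Hhex, Iapp, Glp1r, Asic5, Arg1 and Kcnk2. A second group had no molecule in any D cell, led by the fatty acid receptor Ffar1. The 7 genes of the rule are left out of every count of named genes. Leaving out 0D-1, 0D-2 or 2D-2 lowered the count to 274, 285 and 249, and DESeq2 called 250. Without the deep cells 602 of 6698 genes were called (8.99%, with 4.28% higher and 4.7% lower), 330 of them among the 452. The log2 ratios were then 6.27 for Hhex, 7.66 for Iapp, 7.37 for Glp1r, 5.97 for Asic5, 5.30 for Arg1 and 7.86 for Kcnk2. In that setting 5 of 27 listed transcription factors, 1 of 12 receptors, 3 of 15 channels, 0 of 32 granule genes and 5 of 7 goblet markers were higher. In the same order 9, 6, 1, 10 and 0 were lower. The kinds differed in depth and mitochondrial share as given above, and the part of these in the result was not tested.

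Among transcription factors, 27 of 32 listed genes were tested, and 4 were higher and 8 lower in D cells (median log2 ratio -0.18, against -0.0121 over all genes tested). Hhex led the higher ones. It stood at 768, 576, 500 and 567 CPM in D cells of 2D-1, 2D-2 and the pair 0D-1 and 0D-2, against 12.4, 13.6, 1.98 and 7.89 CPM in the other cells, a log2 ratio of 6.18 ± 0.27 (SE; adjusted p = 2.07e-12). The kinds did not overlap in any library. Pdx1, a factor of pancreas and duodenum, was higher by 1.78 ± 0.26 on the log2 scale (116, 99.8, 54.1 and 136 CPM in D cells, against 24.4, 38.4, 33.0 and 29.1 CPM). Sox4 (1.39 ± 0.19) and Onecut2 (0.89 ± 0.17) were also higher. Onecut3, a factor of the Onecut family, had 0 molecules in all 138 D cells and 99.3, 140, 109 and 137 CPM in the other cells. With a floor of 3 molecules over the D cell group, it was at least 32.5-fold lower. Etv1 fell by 4.64 ± 0.37 on the log2 scale in D cells. The shared endocrine factors Neurod1 (log2 ratio -1.51 ± 0.20), Pax6 (-1.22 ± 0.19), Fev (-1.18 ± 0.21), Nkx2-2 (-1.16 ± 0.23) and Insm1 (-1.01 ± 0.19) were lower but present. Isl1 was not called (0.19 ± 0.20, adjusted p = 0.736), though it passed without the deep cells (0.47, adjusted p = 0.0240).

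Of the hormone genes outside the rule, 4 were tested, and Iapp alone was higher. Iapp stood at 2073, 978, 865 and 1597 CPM in D cells of 2D-1, 2D-2 and the pair 0D-1 and 0D-2, against 15.9, 5.91, 3.30 and 4.86 CPM in the other cells (log2 ratio 7.65 ± 0.29, adjusted p = 1.77e-13). Every D cell value lay above every value of the other cells. Pyy, the appetite-lowering peptide of L cells, stood at 109, 91.2, 27.0 and 120 CPM in D cells and between 1503 and 1757 CPM in the others (-4.14 ± 0.29). Secretin (Sct), which drives bicarbonate release, stood at 1660, 875, 818 and 1079 CPM in D cells, against 4709, 4667, 4452 and 3946 CPM (-1.96 ± 0.24). The tachykinin gene Tac1 was also lower (-3.67 ± 0.35). All 3 peptides had molecules in D cells of every library. Rbp4, the retinol carrier listed as a D cell marker, was not called (-0.35 ± 0.20, adjusted p = 0.423), and its ratio was 0.25 when D cells were limited to at least 100 CP10K of Sst.

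Receptors for nutrients and hormones divided the kinds. Of 46 listed receptors 17 were tested, with 2 higher and 5 lower in D cells (median log2 ratio -0.48). Glp1r, the receptor for glucagon-like peptide, stood at 138, 59.9, 74.3 and 136 CPM in D cells of 2D-1, 2D-2 and the pair 0D-1 and 0D-2, against 0.775, 0.591, 0.659 and 1.82 CPM in the other cells. Its log2 ratio was 6.73 ± 0.40 (adjusted p = 2.11e-10), and its molecules came from 12 of 26, 18 of 61, 8 of 24 and 12 of 27 D cells. Ramp1, a partner protein of the receptor for calcitonin gene-related peptide and amylin, was higher by 1.46 ± 0.25 on the log2 scale. The receptors that were lower had no or almost no molecule in D cells. Ffar1, the long-chain fatty acid receptor, had 192, 158, 198 and 220 CPM in the other cells and was at least 52.5-fold lower in D cells. Galr1, a galanin receptor, was at least 12.6-fold lower, Gpr119, a receptor for lipid amides, at least 6.40-fold, and Ffar3, a short-chain fatty acid receptor, at least 5.74-fold. The cannabinoid receptor Cnr1 had molecules in D cells of 2D-1 alone (7.25 CPM) and 54.7 to 85.7 CPM in the other cells. Of the receptors for somatostatin itself, Sstr1 and Sstr5 passed the filter and neither was called (1.03 ± 0.49 and -0.91 ± 0.56, adjusted p = 0.313 and 0.465, edgeR; named after their values were seen). They rest on 2 to 5 and 1 to 2 molecules in the D cells of a library. The zeros above rest on 820042 UMIs in D cells, against 7434891 in the other cells.

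Ion channels were less divided, with 17 of 30 tested, 2 higher and 3 lower (median log2 ratio 0.13). Trpm2, a calcium-permeable cation channel, was higher by 2.39 ± 0.55, and Kcnmb2, a subunit of calcium-activated potassium channels, by 1.59 ± 0.45 on the log2 scale. Trpm2 rested on 16 molecules in D cells and fell under the filter on low counts without the deep cells. Cacna2d1 (-1.29 ± 0.20), Scn3a (-0.95 ± 0.22) and Kcnb2 (-0.74 ± 0.21) were lower. Scn3a and Kcnb2 lost the call without the deep cells (adjusted p = 0.148 and 0.132, edgeR). A pair of channels outside that list had larger differences. Asic5, a bile acid-sensitive sodium channel, stood at 420, 168, 142 and 289 CPM in D cells of 2D-1, 2D-2 and the pair 0D-1 and 0D-2, against 3.88, 4.14, 2.64 and 15.2 CPM in the others (5.48 ± 0.28, adjusted p = 2.69e-11). Kcnk2, a background potassium channel, stood at 79.7, 48.5, 33.8 and 43.6 CPM in D cells and had a molecule in the other cells of 2D-2 alone (0.591 CPM). Its D cell values rest on 11, 17, 5 and 8 molecules in 5, 12, 3 and 4 cells.

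Genes of the secretory granule were lower in D cells or not called. Of 36 listed, 33 were tested, none was higher and 9 were lower, with a median log2 ratio of -0.67. Chga, chromogranin A, stood at 391, 425, 196 and 322 CPM in D cells of 2D-1, 2D-2 and the pair 0D-1 and 0D-2, against 2466, 1480, 1040 and 1736 CPM in the other cells (-2.21 ± 0.22, adjusted p = 6.9e-07). Scg2, secretogranin, had a ratio of -3.03 ± 0.28. The peptide-processing enzymes Pam (-1.83 ± 0.22), Cpe (-1.40 ± 0.20) and Pcsk1 (-0.94 ± 0.21) followed, as did the vesicle proteins Rab3c (-3.23 ± 0.48) and Cadps (-1.21 ± 0.26). Enterochromaffin genes, those of serotonin cells, were lower in all 4 tested, among them Tph1, which makes serotonin (-3.34 ± 0.44), and Ddc (-1.62 ± 0.19).

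Other genes complete the group high in D cells. Arg1, arginase, stood at 174, 117, 149 and 142 CPM in D cells of 2D-1, 2D-2 and the pair 0D-1 and 0D-2, against 2.71, 2.96, 7.25 and 5.46 CPM in the others (5.12 ± 0.29). The other cells never reached the lowest D cell value. Arg1 was also present over all quality cells, at 2.78 and 3.61 CPM in 2D-1 and 2D-2 and 2.76 and 3.34 CPM in 0D-1 and 0D-2. Th, the first enzyme of catecholamine synthesis, was higher by 3.41 ± 0.38, and Rgs4, which shortens G-protein signals, by 3.05 ± 0.25 on the log2 scale. Acsl6, a fatty acid-activating enzyme (2.77 ± 0.35), Mylk, myosin light chain kinase (2.37 ± 0.28), the receptor Notch1 (2.32 ± 0.41) and Clmn (2.28 ± 0.27) made up the 12 largest. That ranking covers called genes with the same sign in every library and at least 50 CPM in the higher kind. Without the deep cells the ratio was 4.89 for Mylk and 3.59 for Clmn. Notch1 then fell under the filter on low counts and was not tested. On the lower side stood Sis, the brush-border sucrase (-6.67 ± 0.37), the sodium-calcium exchanger Slc8a1 (-5.19 ± 0.51), Myl7 (-3.93 ± 0.40), the keratin Krt20 (-3.88 ± 0.26) and Upp1 (-3.75 ± 0.28). Of 22 interferon genes tested, Rtp4 (1.81 ± 0.32) and Isg15 (1.39 ± 0.29) were higher in D cells; Isg15 stood at 188 CPM in D cells of 2D-1 and at 37.1 to 43.6 CPM in those of the other libraries. None of 11 clock genes, 11 heat shock genes, 6 genes of antigen presentation (MHC class II) or 35 nuclear genes of oxidative phosphorylation was called by edgeR or DESeq2 (2, 1, 1 and 2 had an unadjusted p under 0.05 in edgeR). With the deep cells left out, edgeR called 3 of the 35 oxidative phosphorylation genes lower (Ndufb8, Cox6c and Ndufa4) and 1 of 3 tested clock genes higher (Cry2). Of 13 mitochondrially encoded genes tested none was called by edgeR (4 at an unadjusted p under 0.05) and 1 by DESeq2, whereas without the deep cells 11 of 12 were higher (median 0.63). Slc12a2, the sodium-potassium-chloride cotransporter of secretory crypt cells, was called higher (1.35 ± 0.27) but had a ratio of -0.75 without the deep cells (adjusted p = 0.417, edgeR).

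**Figure D2:**
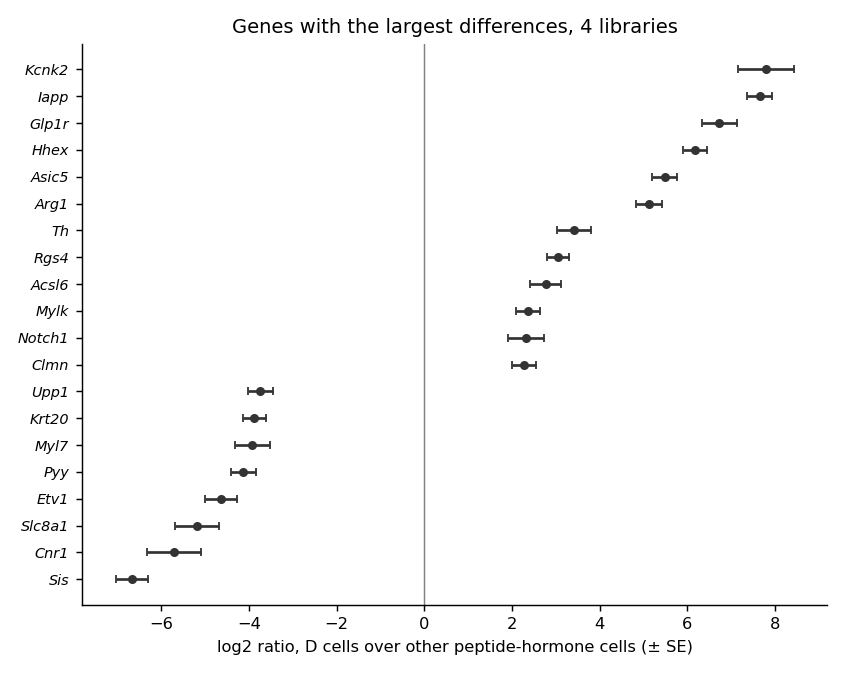
Log2 ratios of D cells over other peptide-hormone cells with their standard errors, from 4 libraries. The 20 genes were taken from the 12 largest called changes in each direction and had molecules in both kinds. That choice was limited to genes with the same sign in every library and at least 50 CPM in the higher kind. The 12 higher genes run from Kcnk2 at 7.80 to Clmn at 2.28, and Sis at -6.67 is lowest; genes with 0 molecules in D cells are not drawn.

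Splitting the other cells by their leading hormone showed where each gene was next highest. Pooled over libraries, Hhex stood at 593 CPM in Sst-highest cells, 21.3 CPM in Gip-highest, 4.78 CPM in Cck-highest, 4.11 CPM in Gcg-highest and at 0 in Ghrl- and Nts-highest cells. Asic5 had the same order at the top (233 CPM, then 17.7 CPM in Gip-highest cells). Arg1 did not: after 138 CPM in Sst-highest cells came 20.7 CPM in Ghrl-highest cells. Ffar1 was at 0 in D cells and between 80.7 and 570 CPM in the other kinds. Rgs4, at 270 CPM in D cells, was also at 158 CPM in Nts-highest and 111 CPM in Gcg-highest cells. Isl1, at 752 CPM in D cells, lay within the range of the other kinds (253 to 1303 CPM). Among 2971 genes, those whose summed levels followed Sst most closely over the 24 sums (6 kinds in 4 libraries, Pearson correlation of log2(CPM + 10)) were Hhex (0.977), Iapp (0.970), Glp1r (0.967), Asic5 (0.939) and Arg1 (0.891). The kinds were set by which hormone was highest, so Sst is high in 1 kind by construction and the correlations restate the contrast of that kind with the others. They are a description, and the sums share libraries and differ in depth.

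**Figure D3:**
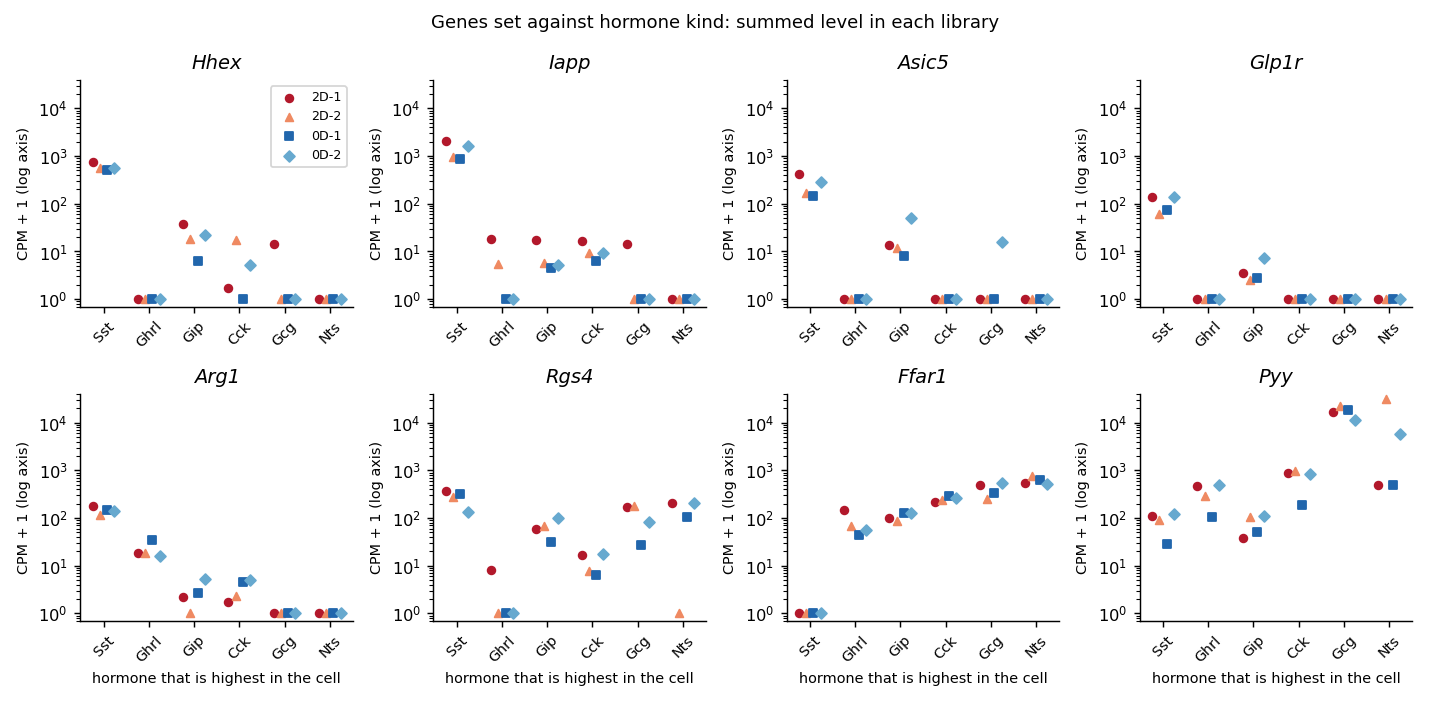
Summed level (CPM plus 1, log axis) of 8 genes in each library, by the hormone that is highest in the cell. Hhex, Iapp, Asic5, Glp1r and Arg1 are highest in Sst-highest cells in all 4 libraries, and Ffar1 has no molecule there.

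The share of D cells was then compared between 2D and 0D libraries, which asks whether the cells grew more or less frequent. Of quality cells, 0.370% were D cells in 2D-1 (95% exact binomial interval 0.242 to 0.542) and 0.764% in 2D-2 (0.585 to 0.980), against 0.316% in 0D-1 (0.203 to 0.470) and 0.379% in 0D-2 (0.250 to 0.550). The high value of 2D-2 stood alone, since 2D-1 lay between the 0D libraries. The 2D libraries averaged 0.567% ± 0.278 and the 0D libraries 0.347% ± 0.0440 (SD, n = 2 each; two-sided exact permutation p = 0.667, where the smallest possible is 0.333). Of all peptide-hormone cells, D cells made up 7.90% (5.23 to 11.4) in 2D-1 and 16.4% (12.7 to 20.5) in 2D-2, against 11.8% (7.69 to 17.0) in 0D-1 and 11.1% (7.45 to 15.8) in 0D-2. Here the 2D libraries lay on either side of the 0D libraries, and the means of 12.1% ± 5.98 and 11.4% ± 0.462 (SD, n = 2 each) differed by less than that spread (exact permutation p = 1). Without 2D-2 the difference in the hormone cell share was -3.54 percentage points. Among quality cells under 10000 UMIs, D cells made up 0.738% and 1.21% in 2D-1 and 2D-2, against 0.751% and 1.26% in 0D-1 and 0D-2, so the difference in share was no longer positive. Intervals cover counting error only.

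**Figure D4:**
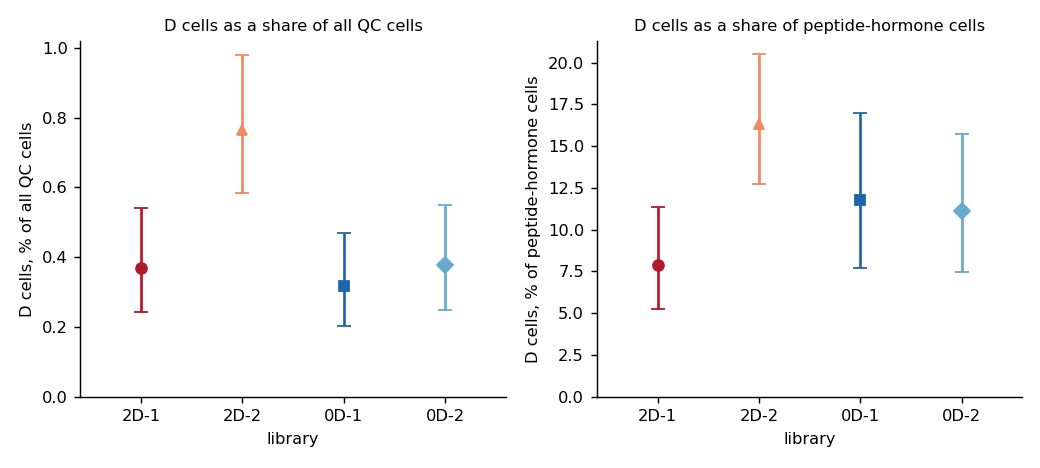
D cells as a percent of all quality cells (left) and of peptide-hormone cells (right) in each library, with 95% exact binomial intervals for counting error. In both panels 2D-2 is highest, at 0.764% and 16.4%, and 2D-1 lies among or below the 0D libraries.

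Within D cells, no gene passed the comparison of 2D with 0D libraries. By edgeR's quasi-likelihood test 0 of 2700 genes were called (0%), 92 had an unadjusted p under 0.05, and the smallest Benjamini-Hochberg adjusted p was 0.707. DESeq2 also called 0, with 23 at an unadjusted p under 0.05. Leaving out 2D-2 gave 29 calls, leaving out 2D-1 gave 17 and leaving out either of the 0D libraries gave 13, fits in which a lone library stands for its group. None of the 4 D cell markers tested outside the rule was called. Hhex had a log2 ratio of 0.29 ± 0.38 (768 and 576 CPM in 2D, against 500 and 567 CPM in 0D), Iapp 0.26 ± 0.53, Isl1 0.35 and Rbp4 0.01. Sst itself, which chose the cells, stood at 101068 and 61524 CPM in 2D-1 and 2D-2, against 53642 and 62547 CPM in 0D-1 and 0D-2. Ghrl stood at 7966 and 3259 CPM, against 5393 and 4530 CPM, and Gip at 5277 and 1913 CPM, against 1609 and 1161 CPM. Of these 3 hormones only Gip had groups that did not overlap, and as genes of the rule none is tested.

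Single genes are given by their values, none of them called. Slc12a2 stood at 65.2 and 131 CPM in D cells of 2D-1 and 2D-2, against 487 and 387 CPM in 0D-1 and 0D-2 (log2 ratio -2.10 ± 0.39, adjusted p = 0.707, edgeR). In 0D-2, 69 of its 71 molecules lay in 1 cell. Ube2c, a gene of dividing cells, stood at 21.7 and 37.1 CPM, against 162 and 120 CPM (-2.15 ± 0.43), with 21 of 24 and 20 of 22 molecules in 1 cell of 0D-1 and 1 cell of 0D-2. The stem cell gene Olfm4 stood at 7.25 and 411 CPM, against 1237 and 1145 CPM, with 207 of 210 molecules of 0D-2 in 1 cell. Each of these 3 genes had 0 to 12 molecules in the D cells of a library once the deep cells were left out. Reg3g, an antimicrobial lectin of the epithelium, stood at 1537 and 468 CPM, against 345 and 169 CPM (1.96), and without the deep cells at 412 and 143 CPM, against 198 and 264 CPM (0.13), where the groups overlapped. Neurod1 stood at 319 and 200 CPM, against 155 and 125 CPM (0.82), and the chaperone partner Dnaja1 at 370 and 510 CPM, against 203 and 229 CPM (0.99). With all D cells the groups did not overlap for these genes. They were picked by small p, which favours such groups, so the lack of overlap is no separate support. The ratio without the deep cells was 0.69 for Neurod1 and 0.97 for Dnaja1, neither called.

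The gene lists were read by their counts, since none of their members was called. All 10 tested markers of enteroendocrine cells in general lay above 0 (median log2 ratio 0.42), as did 15 of 18 granule genes (0.33), 12 of 14 immediate early genes (0.42) and 14 of 18 genes of the endoplasmic reticulum stress response (0.31), against 48.9% of all genes tested (median -0.011). Of nuclear oxidative phosphorylation genes, 32 of 35 lay below 0 (-0.30). All 7 goblet markers lay above 0 (1.34). In the other peptide-hormone cells 18 of 20 immediate early genes, 19 of 20 reticulum genes and 7 of 7 goblet markers also lay above 0. Of their oxidative phosphorylation genes 32 of 35 lay below 0. Their enteroendocrine markers (7 of 10) and granule genes (22 of 34) lay above 0 less often, against 49.8% of all genes tested there. The enteroendocrine and granule lists share members, among them Chga and Scg2. Without the deep cells the medians in D cells were 0.17 for enteroendocrine markers and 0.11 for granule genes (10 of 18 above 0). They were 0.012 for immediate early genes, 0.001 for the reticulum genes, 0.11 for oxidative phosphorylation and -1.28 for goblet markers. The oxidative phosphorylation and goblet medians thus turned sign when 16 cells were left out. No clock gene passed the filter on low counts. The interferon genes summed to 2240 CPM in D cells of 2D-1 and 602 CPM in those of 2D-2, against 669 and 480 CPM in 0D-1 and 0D-2. The high library was the one that stood apart over all its cells.

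**Figure D5:**
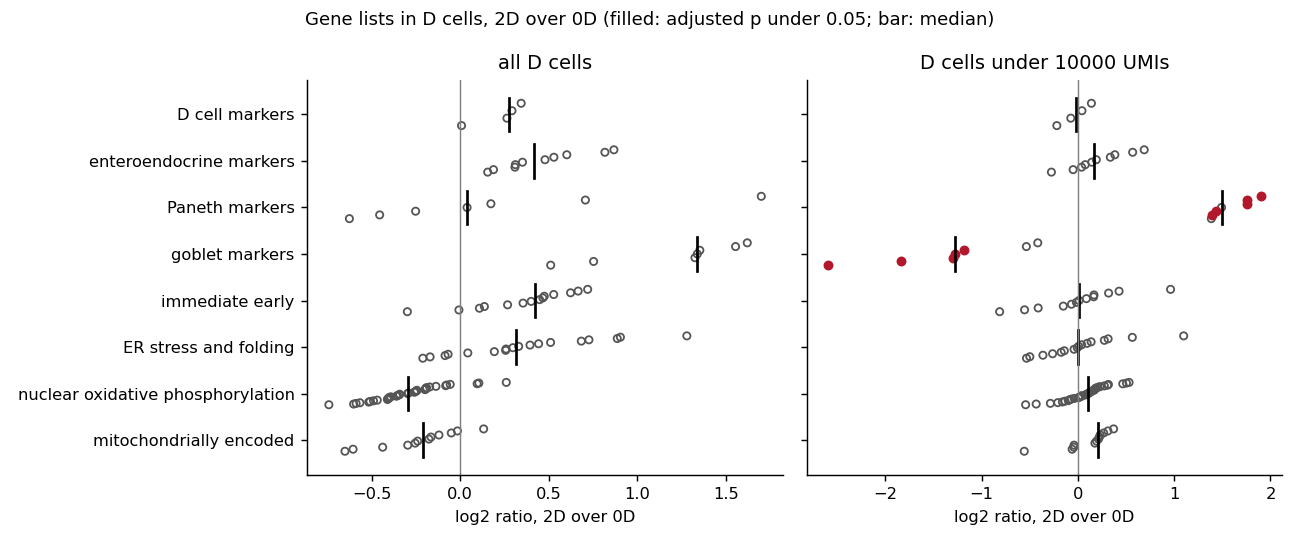
Log2 ratios of 2D over 0D for members of 8 gene lists in D cells, with all cells (left) and without cells of at least 10000 UMIs (right). Circles are genes, black bars are medians and filled circles have an adjusted p under 0.05; no circle is filled on the left, and 5 Paneth and 5 goblet markers are on the right.

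Without the deep cells, 22 of 1668 genes were called (1.32%, edgeR), 14 higher (0.839%) and 8 lower (0.48%) in 2D. The largest group was Paneth cell transcripts, above all the defensins, whose near-identical copies can share reads, so single members are uncertain. Defa24 stood at 7424 and 8743 CPM in these D cells of 2D-1 and 2D-2, against 2429 and 3516 CPM in 0D-1 and 0D-2 (1.44 ± 0.26, adjusted p = 1e-05). The other peptide-hormone cells had similar levels, 6376 and 7679 CPM, against 1955 and 2658 CPM (1.62), and Defa24 over all quality cells was also higher in 2D (71397 and 89177 CPM, against 41446 and 41528 CPM). Itln1, a Paneth lectin (1.90 ± 0.30), and Lyz1, lysozyme (1.39 ± 0.29), were also called; with all D cells the ratio of Lyz1 was -0.63. The smallest p was that of Gm42418, a locus known to collect ribosomal RNA reads, at 7575 and 8338 CPM, against 40038 and 38504 CPM (-2.31 ± 0.27, adjusted p = 9.8e-14). Its ratio was -2.13 in the other peptide-hormone cells. AY036118 and Lars2 were also lower (-1.48 ± 0.28 and -1.21 ± 0.28). Zg16, a goblet protein, stood at 532 and 743 CPM, against 3668 and 961 CPM (-1.84 ± 0.28). With all D cells its ratio was 1.34, the opposite sign. In 0D-1, 1 cell held 208 of the 222 Zg16 molecules. For Tff3, Fcgbp, Clca1 and Agr2, which were also called lower, 1 cell of 0D-1 held 91.2% to 97.6% of that library's molecules. In 0D-2 the top cell held 50.5% for Zg16, 70.1% for Tff3, 83.7% for Fcgbp, 75% for Clca1 and 24.2% for Agr2. The groups overlapped for Fcgbp and Agr2. The part of single cells in these calls was not tested.

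Outside those groups 2 genes were called, and neither was marked by another cell type in the lists used. Hspd1, a mitochondrial chaperonin, stood at 221 and 369 CPM in D cells under 10000 UMIs of 2D-1 and 2D-2, against 116 CPM in both 0D libraries (1.38 ± 0.39, adjusted p = 0.0296, edgeR). Its ratio in the other peptide-hormone cells was 0.31. Fabp5, a fatty acid-binding protein, stood at 1175 and 845 CPM, against 281 and 655 CPM (1.05 ± 0.30, adjusted p = 0.0296), and its ratio in the other cells was -0.06. With all D cells kept neither was called, and the ratio was 1.12 for Fabp5 and -0.22 for Hspd1, the opposite sign. Over all quality cells Hspd1 was lower in 2D (578 and 444 CPM, against 697 and 653 CPM).

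Whether D cells changed differently from the other peptide-hormone cells was tested directly, as the difference of the 2 log2 ratios in 1 edgeR fit. None of 9731 genes was called (0%; 240 at an unadjusted p under 0.05), and DESeq2 called 0 (33 unadjusted). Leaving out 2D-2 gave 53 calls, leaving out 2D-1 gave 7, leaving out 0D-1 gave 19 and leaving out 0D-2 gave 4. With all cells kept, Hspd1 and Fabp5 were thus not shown to differ between the kinds of cell. Their calls between 2D and 0D came without the deep cells, a setting in which the difference of the changes was fitted separately. The values of Hspd1 and Fabp5 in that separate fit are not reported here. Without the deep cells 13 of 7832 were called (0.166%; 0.0255% with a higher and 0.14% with a lower change in D cells), 1 of them Sst itself. Among them were the goblet genes Zg16, Clca1, Fcgbp, Tff3, Agr2, Muc2 and Spink4, for each of which 1 cell of 0D-1 held 85.0% to 97.6% of that library's molecules in D cells. In the other peptide-hormone cells alone, 15 of 10171 genes were called between 2D and 0D (0.147%), from 1011 cells against 138.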

How the data were processed

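Crypts of mouse small intestine gave 4 single-cell libraries (10x Genomics, 3′ chemistry of version 2), per the labels' protocols. The authors deposited raw UMI counts per gene and barcode; per the submitters' processing notes Cell Ranger 2.1.1 and build mm10 were used, while the file headers name cellranger 7.0.0. Whether intron reads were counted is not given in the sources used here.

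Cells were filtered and D cells chosen as stated in the report. Scrublet's automatic threshold marked 0 cells in 2D-2, so it was taken not to have worked, no doublets were removed, and leaving out cells above 1 common score was an alternative. UMIs were summed per library and kind of cell, since cells are not replicates, and tested with edgeR 4.0.16 (quasi-likelihood, filterByExpr, TMM, Benjamini-Hochberg over all genes tested, threshold 0.05; SE is the log2 ratio over the square root of F). D cell sums held 137956 and 350695 UMIs in 2D-1 and 2D-2, against 147962 and 183429 in 0D-1 and 0D-2. DESeq2 1.42.0, other scaling, filters, cell limits and left-out libraries were alternatives. The edgeR steps were tested on simulated data. Gene coordinates came from GENCODE M21, where 32158 of 32285 gene IDs matched.

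Genes named for 2D against 0D were those with the smallest p in each direction and up to 4 per list. For D cells against other peptide-hormone cells they were the 12 largest called changes in each direction with the same sign in every library and at least 50 CPM in the higher kind, and list members called. Asic5, Kcnk2 and other genes entered by that rule; genes named without the deep cells were picked after their values were seen. Members, lists and rules were chosen with earlier results of these data known. Software was Python 3.11.15 with scanpy 1.11.5 and R 4.3.3 with limma 3.58.1. Some list members are counted but not reported here by name.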

Additional observations from a re-analysis of the deposited data

How the results depend on the processing

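Depth is the main limit: 138 cells and 820042 UMIs, so genes under the filter on low counts were not tested. The count of genes called between 2D and 0D was 0 with DESeq2, RLE size factors, a mitochondrial limit of 10%, Sst at least 100 CP10K or at least 5 Sst UMIs. It was 9 with no filter on low counts, 5 without cells above the common doublet score, 22 without cells of at least 10000 UMIs, 5 with every cell thinned to at most 1000 UMIs, and 13 to 29 with a library left out, where the lone library is assumed to vary like the others. Members of the gene lists called were 2, 1 and 11 in the first 3 of these settings and 2 to 10 with a library left out. For D cells against other peptide-hormone cells, DESeq2 called 250 genes and thinning left 200 (of 2075 tested; fewer molecules), and leaving out a library gave 249 to 489. The differing change had 9 calls with no filter, 2 at Sst of at least 100 CP10K, 13 without the deep cells and 4 to 53 with a library left out. The share of quality cells turned to a difference of -0.0309 percentage points without the deep cells, and ranged from 0.0226 to 0.416 with a library left out. The share of hormone cells ranged from -3.54 to 4.92. Of the genes named against the other hormone cells, 13 lost their call in some setting, in 43 fits in all, most often Kcnb2, Scn3a, Pcsk1, Kcnmb2 and Slc12a2. Directions there turned for Rbp4 (0.25) and Spink4 (-0.27) at Sst of at least 100 CP10K and for Slc12a2 (-0.75) without the deep cells.

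Between 2D and 0D, 19 of the genes named gained a call in some setting, in 41 fits in all, and 13 turned direction in some setting. Without the deep cells the log2 ratios that turned were -0.074 for Iapp, -0.22 for Rbp4, 1.39 for Lyz1, 1.38 for Hspd1, -1.84 for Zg16, -1.18 for Tff3, -1.28 for Fcgbp, -2.59 for Clca1 and -1.30 for Agr2. Without cells above the common doublet score they were -0.042 for Rbp4, 2.06 for Lyz1, -0.77 for Zg16, -0.045 for Tff3, -0.31 for Fcgbp and -0.093 for Clca1. After thinning they were -0.19 for Reg3g, -0.048 for Isl1, 1.24 for Lyz1 and -0.27 for Fcgbp, and at Sst of at least 100 CP10K -0.16 for Rbp4 and 1.82 for Lyz1. With a library left out, ranges that crossed 0 were -0.40 to 0.86 for Iapp, -0.14 to 0.71 for Isl1, -0.25 to 0.24 for Rbp4, -0.79 to 3.87 for Defa24, -0.23 to 4.00 for Itln1, -1.59 to 3.30 for Lyz1, -0.20 to 1.96 for Clca1, -0.14 to 3.74 for Agr2 and -1.30 to 0.36 for Hspd1. The causes were not tested.

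Deviations from the group means showed no pairing by the replicate numbers of the labels (r = -0.016 over 2700 genes for 2D-1 with 0D-1). D cell sums led by a few deep cells cannot settle whether the libraries were paired. With a replicate block 0 genes were called by edgeR, with 83 at an unadjusted p under 0.05. With that block the ratio was -0.010 for Rbp4 and 0.71 for Lyz1, both with the sign turned.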
